A study of Mus musculus with 9 samples.

Results

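The genes of the cytosolic ribosomal proteins were examined in RNA of the mouse dentate gyrus, the field of the hippocampus whose main cells are granule neurons. Members were the symbols that begin with Rpl or Rps and go on with a number and at most one letter and one digit, together with Rplp0, Rplp1, Rplp2 and Rpsa, while the S6 kinases (Rps6k) were left out. This gave 84 genes of the 23988 symbols that both deposited tables share, with 51 in the large subunit and 33 in the small subunit. The genes were selected by symbol, and the set was chosen by the fold changes of these same comparisons, in which such genes had been seen to move together. The counts over it therefore describe the members and carry no test of the set.

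All mice were C57BL/6 and 8 weeks old, and formed 3 groups named E0, E1 and E4, with 3 mice in each and one library per mouse, made from total RNA of microdissected tissue. The series concerns neuronal activation. Its labels name no genotype or treatment and do not say what the number after E counts; in the published study it stands for hours after electroconvulsive stimulation, with E0 as the unstimulated control. What was analysed here are the authors' own comparisons of E1 with E0 and of E4 with E0, with each gene's mean normalised read count over 6 libraries, log2 fold change with its standard error (SE), and adjusted p. A gene was called raised or lowered where the authors' adjusted p was below 0.05. Both comparisons share the E0 mice, and the p-values measure the spread between these mice.

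The ribosome reads messenger RNA on its small subunit and joins amino acids on its large subunit, and each holds one copy of nearly every ribosomal protein. The messages of these proteins are short, abundant and long-lived. They begin with a run of pyrimidines, the terminal oligopyrimidine tract, through which the mTOR kinase and the binding protein Larp1 set how strongly they are translated. In neurons they are also found in dendrites and axons.

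The sequence around the annotated start is shown for 7 members on which the results below turn: Rps12 and Rplp2, with the lowest E1 values, Rps25, with a large difference between E4 and E1, Rpl9, with the value closest to 0 in E1, and the second copies Rpl22l1, Rpl7l1 and Rps27l. Each stretch covers 60 bases before the start and 20 from the start on, 5′ to 3′ on the gene's strand, from RefSeq on GRCm38.p6, a later build than the mm9 used by the authors. Where a gene has several starts the first listed is shown. Capitals mark the longest run of at least 5 pyrimidines that begins within 12 bases of the annotated start, where one is present. Runs that begin further upstream stay in lower case, among them a long one of Rps25 that ends within 12 bases of its start.
Rps12, chr10:23787190-23787269, minus strand: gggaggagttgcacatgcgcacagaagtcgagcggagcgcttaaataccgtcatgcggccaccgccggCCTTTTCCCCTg
Rplp2, chr7:141447591-141447670, plus strand: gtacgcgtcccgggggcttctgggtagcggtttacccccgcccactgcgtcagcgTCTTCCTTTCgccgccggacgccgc
Rps25, chr9:44407654-44407733, plus strand: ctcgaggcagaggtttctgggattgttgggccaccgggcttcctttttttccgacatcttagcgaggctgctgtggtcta
Rpl9, chr5:65391412-65391491, minus strand: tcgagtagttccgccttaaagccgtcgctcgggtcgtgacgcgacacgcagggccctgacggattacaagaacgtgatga
Rpl22l1, chr3:28805448-28805527, plus strand: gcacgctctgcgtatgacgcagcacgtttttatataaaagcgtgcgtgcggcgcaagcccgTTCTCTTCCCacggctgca
Rpl7l1, chr17:46782637-46782716, minus strand: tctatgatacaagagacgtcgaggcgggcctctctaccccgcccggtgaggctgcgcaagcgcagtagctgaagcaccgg
Rps27l, chr9:66946026-66946105, plus strand: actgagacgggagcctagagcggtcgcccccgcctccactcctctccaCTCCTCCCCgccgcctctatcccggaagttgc

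Promoter windows of 300 bases, 250 before the start and 50 after, were given for 63 of the 84 members, with 75 windows in all because some genes have several starts. A start at C followed by at least 4 pyrimidines on the gene's strand stood in 17.3% of the members' windows and in 2.51% of all 32851 windows. With a C anywhere within 12 bases of the start and at least 6 pyrimidines after it, a looser search chosen after the windows were seen, the shares were 42.7% and 14.2%. Read on both strands, CCGGAAG, the core bound by ETS factors and GABP, was in 36.0% of the members' windows against 8.86% of all. The palindrome part TCTCGCG was in 20% against 2.56%, the Sp1 core GGGCGG in 60% against 35.7%, and the YY1 core AAGATGG in 16.0% against 6.34%. CCGGAAG and AAGATGG can overlap by the letters AAG. Of the 12 well-read members with the exact tract at their annotated start, 11 were lowered in E1 and the median log2 fold change was −0.79, beside 39 of 44 and −0.58 for those without it. The 44 include Rps12, whose run of pyrimidines begins past its annotated start. By the looser search it was 25 of 27 and −0.76 with the tract, beside 25 of 29 and −0.57 without it. Members with CCGGAAG had 21 of 22 lowered in E1 and a median of −0.73, beside 29 of 34 and −0.59 without it. With and without AAGATGG the E1 medians were −0.70 and −0.66, and with and without GGGCGG −0.68 and −0.65. For TCTCGCG the order was the other way, with −0.62 beside −0.70 without it. These splits of the same fold changes are descriptions and were not tested.

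Both tables rest on unequal depth, and markers of other cells move with E1. The reads in genes were about 6140000 to 10960000 per E0 library, 1940000 to 4760000 per E1 library and 10020000 to 13550000 per E4 library, as recovered from genes with a single read. Over all genes tested in E1, 15.0% were lowered and 20.6% raised. Of the granule neuron markers, 7 of 9 were lowered in E1 and 1, C1ql3, was raised. Their summed level went from 20984 in E0 to 12984, beside 16938 in E4, where all 9 were called, 6 lowered and 3 raised. Interneuron markers were raised for 6 of 8 in E1 and lowered for none, with sums of 5099, 8747 and 6079.5 in E0, E1 and E4. Endothelial markers were raised for 4 of 8 in E1 and lowered for 1, Ly6c1, with sums of 1430.4, 2910.5 and 1419. Of the CA pyramidal markers 4 of 6 were raised in E1 and 1, Fibcd1, was lowered, with sums of 1030.4, 1281 and 1508. In E4 Fibcd1 was raised, at a log2 fold change of 1.48, and Wfs1 was lowered, at −0.60. The other 3 of 5 tested were not called there, and the median of the 5 was −0.13. Astrocyte markers were lowered for 5 of 8 in E1 and raised for none, with sums of 65469.6, 58974 and 63359. Microglial markers were lowered for 2 of 9 (22.2%) in E1 and raised for none, with sums of 3909, 2914 and 3699. Of 8 oligodendrocyte markers 1 was raised and 2 lowered, with sums of 11036, 11484 and 10959.6, and 4 of 5 blood markers were listed at 0. Choroid plexus markers were lowered for 1 of 5 tested in E1, with sums of 388, 219 and 307. The part of depth and of these markers in the results on the members was not tested. In such bulk samples, fewer cells of a type and less RNA per cell cannot be told apart.

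In E0 the ribosomal protein messages together made up 1.80% of the summed level of all genes, beside 1.10% in E1 and 1.77% in E4. These group levels were computed from the deposited mean counts and fold changes and set on the scale of the table for E4. Well-read members are those whose mean count is 50 or more in each table, 76 in all. Their E0 level could be had from each table, and the ratio between the tables was 1.90 with little spread (an SD of 0.0039 on the log2 scale), so a member's E0 level did not depend on which table gave it. For them the tables hold no value per mouse. In E0 the 76 levels ran from 136 for Rps4l to 7851 for Rpl3, with a median of 1888.

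Levels between genes were compared per kilobase of transcript. The best read in E0 was Rplp1, an acidic protein of the stalk that recruits translation factors, at 8303 per kilobase. Rpl13a, of the large subunit, followed at 6090 per kilobase in E0. Next stood Rps24, of the small subunit, at 5847, and Rpl3, which lies near the peptidyl transferase centre, at 5811 per kilobase. These 4 were lowered in E1, and in E4 only Rpl3 among them was called. Rpl7l1 had the lowest E0 level per kilobase of the 75 with a length, at 313.

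At E1 nearly all members were lower than in E0. Of 79 members tested, 68 were lowered, 1 was raised and 10 were not called, where 15.0% of all 15660 genes tested were lowered, 20.6% raised and 35.5% called either way. Where the mean count in that table was 500 or more, as for most members, 25.9% of genes were lowered and 31.7% raised. The members' median log2 fold change in the authors' deposited table was −0.62, beside 0.02 for all genes. Of the large subunit, 40 of 46 tested were lowered with a median of −0.56, and of the small subunit 28 of 33 with a median of −0.68. Without Rpl7l1, Rpl22l1 and Rps4l, 67 of the 73 remaining well-read members were lowered, none was raised, and all 73 values were below 0.

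**Figure D1:**
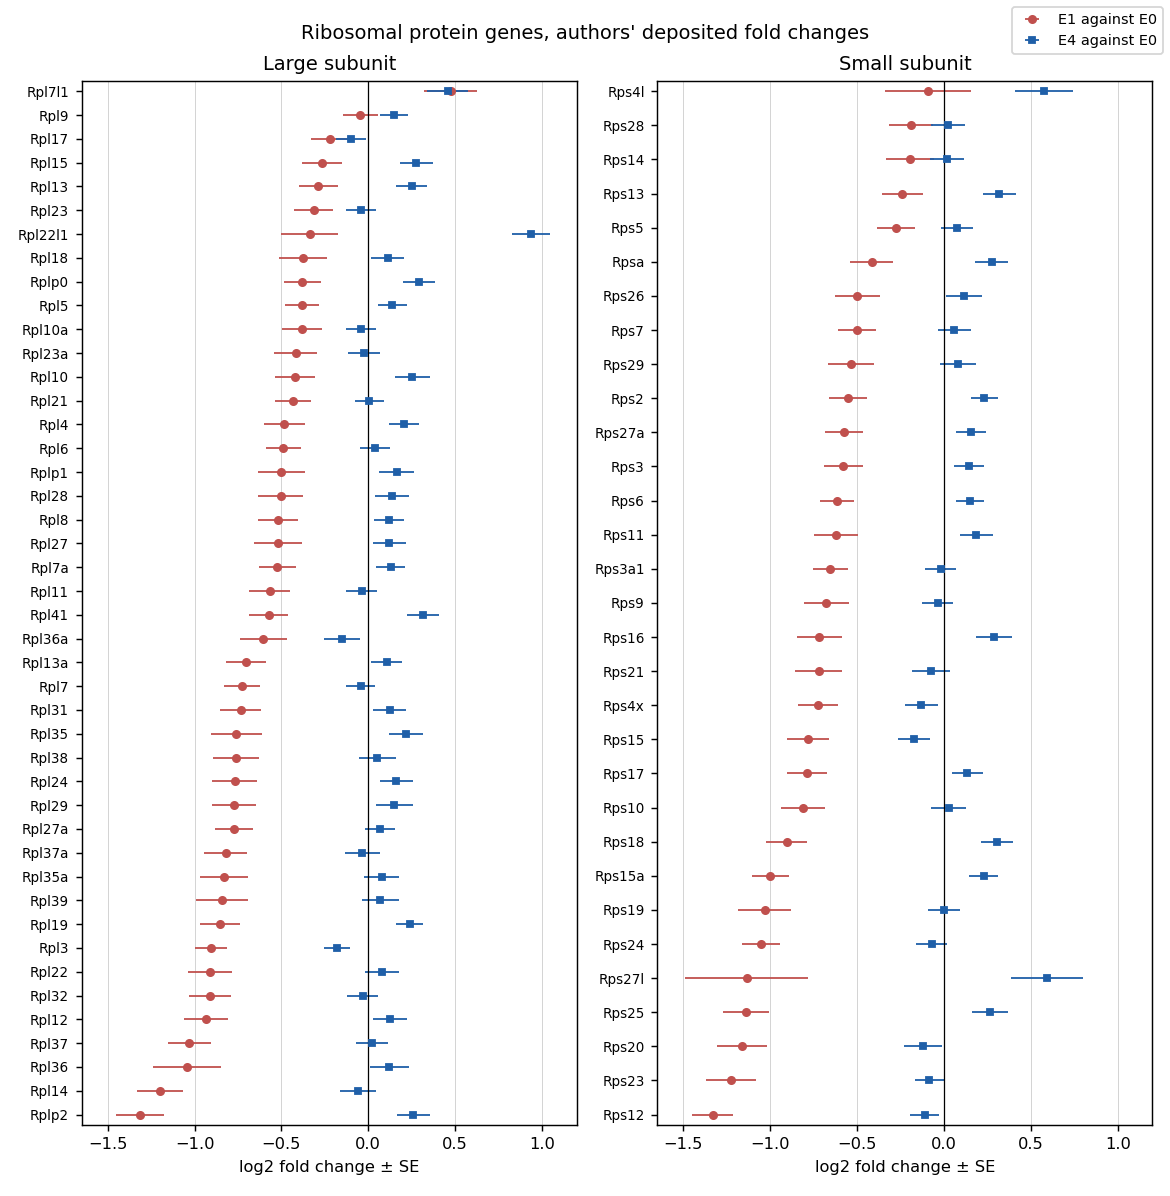
Log2 fold change with its SE for 75 of the 77 ribosomal protein genes compared between E4 and E1, from the authors' deposited tables, E1 against E0 as red circles and E4 against E0 as blue squares, large subunit at left and small subunit at right, ordered by the E1 value. The red points lie left of 0 for every gene shown but Rpl7l1, while the blue points lie around 0 and run from −0.18 for Rpl3 to 0.94 for Rpl22l1.

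The lowest E1 values belonged to Rps12 and Rplp2, a pair from different subunits. Rps12, a small-subunit protein whose gene also hosts small nucleolar RNAs, had levels of 2026 in E0, 805 in E1 and 1875 in E4. Its log2 fold change in the authors' deposited table for E1 was −1.33 ± 0.12 (SE; adjusted p = 8.14e-28 by DESeq2), or 0.397 of the E0 level. Rplp2, a stalk protein that pairs with Rplp1, had levels of 1281 in E0, 515 in E1 and 1535 in E4. The authors' deposited table for E1 gives it −1.31 ± 0.14 (SE; adjusted p = 2.68e-20 by DESeq2). In E4 Rplp2 was called again, this time raised, and Rps12 was not called.

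Next in E1 came Rps23, a protein of the decoding site, with levels of 2249.7, 962 and 2121 in E0, E1 and E4. Rpl14, of the large subunit, had 1708, 744 and 1639, and Rps20, of the small subunit's head, 1335, 596 and 1225. By the authors' deposited table their E1 log2 fold changes were −1.23, −1.20 and −1.16, all lowered. In E4 none of these 3, nor Rps12, was called, with E4 values from −0.12 to −0.06 in the authors' deposited table.

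A few members stood closer to 0 in E1. Rpl9, of the large subunit, had levels of 2920.3, 2829.8 and 3237 in E0, E1 and E4 and a log2 fold change of −0.05 ± 0.10 (SE; adjusted p = 0.776) in the authors' deposited table for E1. Rps28 stood at 1029.5, 902 and 1046, and Rps14, which lies at the small subunit's platform, at 1864, 1627 and 1886. Their E1 values in the authors' deposited table were −0.19 and −0.20, neither called. Also not called in E1 were Rpl17 (−0.22), which lines the exit of the nascent chain, Rps13 (−0.24), Rpl15 (−0.27) and the second copies Rps4l and Rpl22l1, with Rps27 and Rpl3l, which have few reads. Not passing the threshold does not show that a gene kept its level.

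Members were also read by their place in the ribosome. All 3 stalk genes were lowered in E1: besides Rplp2, Rplp1 had levels of 4143, 2929.6 and 4639 in E0, E1 and E4 and Rplp0, which anchors the stalk, 2648, 2035 and 3239.8. The 2 partners of 5S RNA, which also bind the p53 regulator Mdm2 when ribosome assembly fails, were both lowered, with E1 log2 fold changes of −0.38 for Rpl5 and −0.57 for Rpl11 in the authors' deposited table. Around the polypeptide exit 5 of 6 tested were lowered, Rpl17 being the exception, and the seventh, Rpl26, was listed at 0.

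Rps6, the substrate of the S6 kinases, had levels of 3279, 2139.5 and 3641 in E0, E1 and E4. Its E1 log2 fold change in the authors' deposited table was −0.62 ± 0.10 (SE; adjusted p = 2.66e-09 by DESeq2), at the median of the members. Rps27a, made as a fusion with ubiquitin, had levels of 1759, 1179.5 and 1962, and Rpsa, also known as a laminin receptor, 4209.7, 3155 and 5092. Both were lowered in E1, with −0.58 and −0.42 in the authors' deposited table. Of a list of 20 members whose introns hold small nucleolar RNAs, 18 of 19 tested were lowered in E1 with a median of −0.55. Of the 57 well-read members outside that list, 49 were lowered with a median of −0.68. The list may leave out further hosts, so this does not set hosts against genes without such RNAs.

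**Figure D2:**
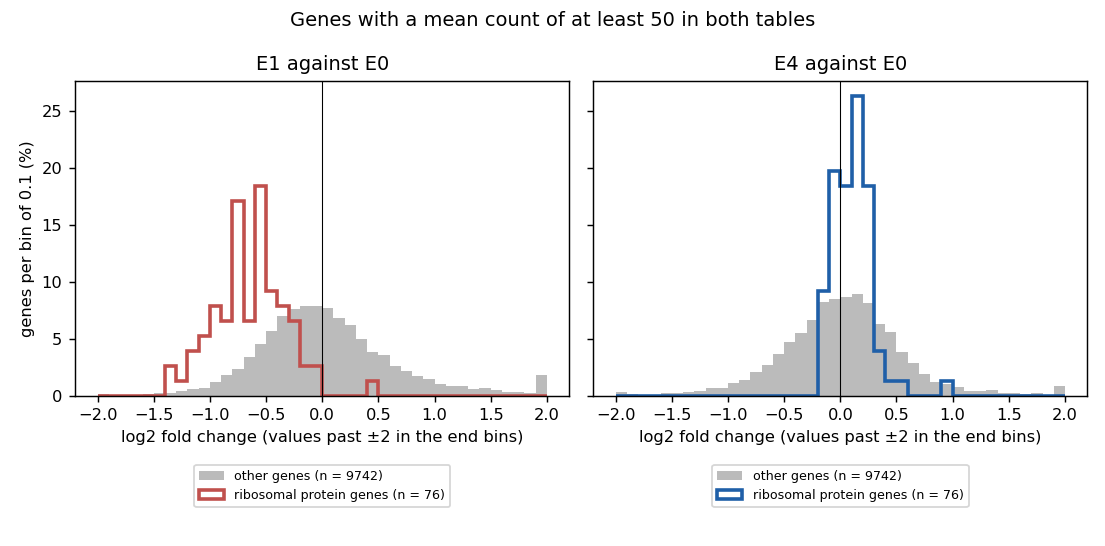
Share of genes (%) per bin of 0.1 in log2 fold change, for E1 against E0 at left and E4 against E0 at right, for genes whose mean count is 50 or more in each table; the outline holds 76 ribosomal protein genes and the grey area the other genes. In E1 the outline sits left of 0 with a median of −0.61, and in E4 it sits around a median of 0.11.

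At E4 the members' values lay around 0, most of them slightly above. Of 79 tested, 19 were raised, 1 was lowered and 59 were not called, where 20.7% of all 14455 genes tested were raised, 18.3% lowered and 39.0% called either way. Where the mean count in that table was 500 or more, 38.2% of genes were raised and 22.0% lowered. The members' shares were 24.1% raised, near the share over all genes and below that of genes with a mean count of 500 or more, where most members lie, and 1.27% lowered, below both. Their median log2 fold change in the authors' deposited table was 0.12, beside −0.01 for all genes. Of the large subunit 10 of 46 were raised and of the small subunit 9 of 33. At an adjusted p below 0.01, 9 members were raised and none lowered.

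Rpl22l1, a second copy of the large-subunit gene Rpl22, had the highest E4 value, with levels of 498, 395 and 954 in E0, E1 and E4. Its E4 log2 fold change in the authors' deposited table was 0.94 ± 0.11 (SE; adjusted p = 6.65e-16 by DESeq2), a 1.91-fold rise. Rpl22 itself had levels of 1399, 744 and 1478, was lowered in E1 and was not called in E4 (0.08 in the authors' deposited table). Among the well-read members of the standard ribosome the highest were Rps13, at 0.32 ± 0.09 (SE), and Rpl41, which encodes a very short peptide, at 0.32 ± 0.09 (SE) in the authors' deposited table, both raised. Among the others raised in E4 were the stalk genes Rplp0 and Rplp2, Rps25, Rps18, Rps2, Rps15a, Rps16, Rpl10, Rpl13, Rpl15, Rpl19 and Rpsa, with values up to 0.30 in the authors' deposited table.

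Rpl3 was the single member lowered in E4, at −0.18 ± 0.07 (SE; adjusted p = 0.0405 by DESeq2) in the authors' deposited table, with levels of 7851, 4187 and 6926 in E0, E1 and E4. That call was lost when a trend with transcript length was removed (−0.13, adjusted p = 0.174). Rps15 (−0.18), Rpl36a (−0.15) and Rps4x (−0.13) also stood at the low end of the authors' deposited table for E4, and none of them was called.

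No deposited table sets E4 against E1, so the difference of both log2 fold changes was tested against its combined SE, over the 12769 genes with mean counts of 10 or more on each side. Of 77 members, 69 were higher in E4 than in E1, none was lower and 8 were not called, where 17.7% of all genes were higher, 19.0% lower and 36.7% called either way. The members' median difference was 0.72 on the log2 scale, beside 0.01 for all genes. E0 cancels in the difference only approximately, because the deposited fold changes appear shrunken, and its error is counted in both SEs. The largest differences among the well-read members were those of Rplp2 at 1.57 ± 0.17 (SE; adjusted p = 1.99e-19 by the normal test over all genes), Rps25 at 1.40 ± 0.17 (SE; adjusted p = 2.54e-15) and Rpl22l1 at 1.27 ± 0.20 (SE; adjusted p = 2.3e-09).

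Rps25, a small-subunit protein near the exit site, had levels of 2082, 945 and 2498 in E0, E1 and E4. The authors' deposited tables give it −1.14 in E1 and 0.26 in E4, and it was called in both. The 8 not called between E4 and E1 were Rpl7l1 (−0.02), Rpl17 (0.12), Rpl9 (0.19), Rps14 (0.21), Rps28 (0.21), Rpl23 (0.27), Rpl10a (0.34) and Rps4l (0.67). Of these, Rpl23 and Rpl10a had been lowered in E1 and Rpl7l1 raised, and the other 5 had not been called.

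The second copies are genes named as relatives of a standard ribosomal protein gene. Whether the product of each is part of the ribosome was not examined. Leaving Rps4l aside, 4 of the 6 listed were tested in E1, and their calls differed. There 1 was raised, 1 was lowered and 2 were not called, beside 20.6% of all genes raised and 15.0% lowered. In E4 the 3 tested were all raised, beside 20.7% of all genes. Rpl7l1, a relative of Rpl7, was the only member raised in E1, with levels of 410.4, 570.4 and 563 in E0, E1 and E4. The authors' deposited tables give it 0.47 ± 0.15 (SE; adjusted p = 0.00697 by DESeq2) in E1 and 0.46 ± 0.12 (SE; adjusted p = 0.000655) in E4. Rpl7 itself was lowered in E1, at −0.73, and was not called in E4, at −0.04 in the authors' deposited tables.

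For 7 members with few reads, the whole reads of every library could be solved from the mean counts and the values that a single read is worth in each library. The solution was unique for each gene, and the libraries are ordered here by depth because the tables do not tie them to a mouse. Rps27l is a second copy of Rps27 and known as a target of p53. It had 84, 98 and 52 reads in the E0 libraries, 17, 13 and 7 in E1, and 218, 136 and 121 in E4. Divided by size factors, this was 74.2, 104 and 82.0 in E0, 34.5, 37.4 and 34.8 in E1, and 156, 129 and 117 in E4. No group overlapped another: every E1 library was below every E0 library, and every E4 library above. The means were 86.9 ± 15.7 in E0, 35.5 ± 1.58 in E1 and 134 ± 19.9 in E4 (SD, n = 3 each). With 3 mice against 3, an exact permutation test cannot go below p = 0.1, so none was run. The authors' deposited tables call it lowered in E1, at −1.14 ± 0.35 (SE; adjusted p = 0.00535 by DESeq2), and raised in E4, at 0.59 ± 0.21 (SE; adjusted p = 0.0125). Its difference between E4 and E1 was 1.73 ± 0.41 (SE; adjusted p = 0.000152 by the normal test over all genes), on an E1 mean below the 50 asked of the well-read members.

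Rps4l, a further gene for the S4 protein that was added to the second copies after its values were seen, had 168, 111 and 86 reads in E0, 58, 47 and 25 in E1, and 266, 239 and 201 in E4. Divided by size factors, the E0 libraries stood at 148, 118 and 136, the E1 libraries at 118, 135 and 124, and the E4 libraries at 190, 226 and 194. Here E0 and E1 overlapped, while all E4 libraries lay above both. The means were 134 ± 15.1 in E0, 126 ± 8.80 in E1 and 204 ± 19.9 in E4 (SD, n = 3 each). In the authors' deposited tables Rps4l was not called in E1, at −0.09, and was raised in E4, at 0.58 ± 0.17 (SE; adjusted p = 0.00268 by DESeq2). Rps4x, the X-linked gene of the same protein, was lowered in E1 and not called in E4.

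**Figure D3:**
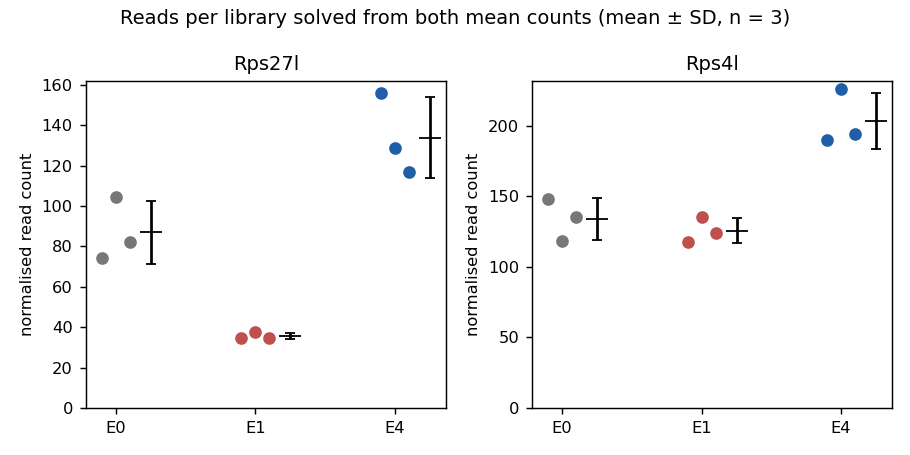
Normalised read count of Rps27l and Rps4l in each library, with E1 set on the scale of the table for E4 and with mean ± SD (n = 3) beside the points. For Rps27l the E1 libraries lie between 34.5 and 37.4, below all E0 libraries, and for Rps4l the E0 and E1 libraries overlap while E4 lies between 190 and 226.

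Some essential members were listed with next to no reads. Rps27 had 5, 9 and 2 reads in E0, 1, 0 and 0 in E1 and 11, 13 and 13 in E4, and Rpl34 had 7, 1 and 1, then 2, 0 and 0, then 10, 6 and 9. Rpl30 had 3 reads over the E0 libraries, 1 over E1 and 5 over E4, and Rpl26 was listed at 0 in both tables. Cells need all 4, and many copies of ribosomal protein genes are scattered over the genome as processed pseudogenes, so reads of a member can be shared with such copies. How shared reads were counted is not given in the sources used here, and its part in these levels was not tested. Of the copies known from other tissues, Rpl3l, of muscle, had 4 reads over the E0 libraries, 4 over E1 and 19 over E4. Rpl39l, of testis, had none in E0, 4 in E1 and 5 in E4, and Rpl10l, also of testis, was listed at 0.

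Ribosomal proteins whose symbols fall outside the naming rule were looked up as well, and 3 of them are given here. Fau, made as a fusion with a ubiquitin-like protein, and Gnb2l1, the signalling scaffold also called Rack1, were lowered in E1, at −0.49 and −0.57 in the authors' deposited table. Rpl36al was not called in E1, where the authors' deposited table gives −0.34. In E4 Fau, at 0.23, and Rpl36al, at 0.46, passed the test by the authors' deposited table.

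Other messages known for an oligopyrimidine tract form a list of their own. Of 19 tested, 12 (63.2%) were lowered and 2 (10.5%) raised in E1, with a median of −0.35, beside 15.0% and 20.6% of all genes. In E4 none was lowered and 7 (36.8%) were raised, with a median of 0.13, beside 20.7% of all genes raised and 38.2% of those with a mean count of 500 or more. Its 10 translation factors, a subset taken after the values were seen, had 9 lowered in E1 and 1 raised in E4. The elongation factor genes were among the lowered: in the authors' deposited table for E1 Eef1b2 stood at −0.87, Eef1g at −0.66 and Eef1a1 at −0.43. Eif4b, whose product helps the helicase of the initiation complex, was at −0.66 in the authors' deposited table. Pabpc1, the binding protein of the poly(A) tail, and Nap1l1, a histone chaperone, were raised in E1, at 0.61 and 0.48 in the authors' deposited table. In E4 Tpt1, a translationally controlled tumour protein, was raised at 1.31 ± 0.09 (SE; adjusted p = 2.93e-42 by DESeq2) and Npm1, the nucleolar protein nucleophosmin, at 0.51 in the authors' deposited table.

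Genes that act on the ribosome without being part of it were read in lists of their own. Of 25 initiation factors and their regulators, 11 (44.0%) were raised and 3 (12%) lowered in E1, beside 20.6% and 15.0% of all genes, and 17 (68.0%) were raised and none lowered in E4, beside 20.7% and 18.3%. Of genes with a mean count of 500 or more in the comparison of E4, 38.2% were raised. That list leaves out the 5 initiation factors of the oligopyrimidine list, and with them 11 of 30 were raised and 7 lowered in E1, and 18 were raised in E4. Of the Eif3 genes only Eif3a, Eif3e, Eif3f and Eif3h were looked up, so the 30 are not all initiation factors. The cap-binding relative Eif4e2 stood at 1.33 and Eif5, which triggers GTP hydrolysis at the start codon, at 0.94 in the authors' deposited table for E1. Eif4a1, the helicase of initiation, was raised in both, at 0.63 in E1 and 0.86 in E4 in the authors' deposited tables. Of 47 genes of ribosome assembly, 12 (25.5%) were raised and 4 (8.51%) lowered in E1 with a median of 0.00, a raised share near the 20.6% of all genes. In E4, 31 (66.0%) were raised and none lowered with a median of 0.43, beside 20.7% of all genes raised. Riok2, a kinase that completes the small subunit, was at 1.23 and Nop58, a core protein of methylation-guiding particles, at 1.16 in the authors' deposited table for E1. Fbl, the methyltransferase fibrillarin, was raised in both, at 0.87 in E1 and 1.07 in E4, and Ddx21, a nucleolar helicase, in E4, at 0.88 in the authors' deposited tables.

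RNA polymerase I makes ribosomal RNA, and of 14 tested genes of its transcription 2 (14.3%) were raised and 1 lowered in E1, and 4 (28.6%) were raised and none lowered in E4, beside 20.6% and 20.7% of all genes raised. Ttf1, the termination factor, was at 1.49 in E1 and Ubtf, the upstream binding factor, at 1.25 in E4 in the authors' deposited tables. Of 17 genes of the mTOR pathway, its S6 kinases, Larp1 and the Myc factors, 8 (47.1%) were raised and 3 (17.6%) lowered in E1, and 8 (47.1%) were raised and none lowered in E4, beside 20.6% and 20.7% of all genes raised. Rheb, the GTPase that switches mTOR on, was raised by 1.56 in E1 and 1.29 in E4, and Larp1 by 0.56 and 0.28, in the authors' deposited tables.

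Mitochondrial ribosomal protein genes, whose products serve the separate ribosome of that organelle, were lowered in E1 for 26 of 77 (33.8%) and raised for 1, with a median of −0.37, where 15.0% of all genes were lowered. In E4, 12 (15.6%) were raised and 6 (7.79%) lowered, with a median of 0.05, beside 20.7% and 18.3% of all genes. Their SEs were larger, with a median SE of 0.21 in E1 beside 0.12 for the cytosolic members, so the counts of calls are not on equal footing. No test of the difference between both kinds of ribosome was run.

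**Figure D4:**
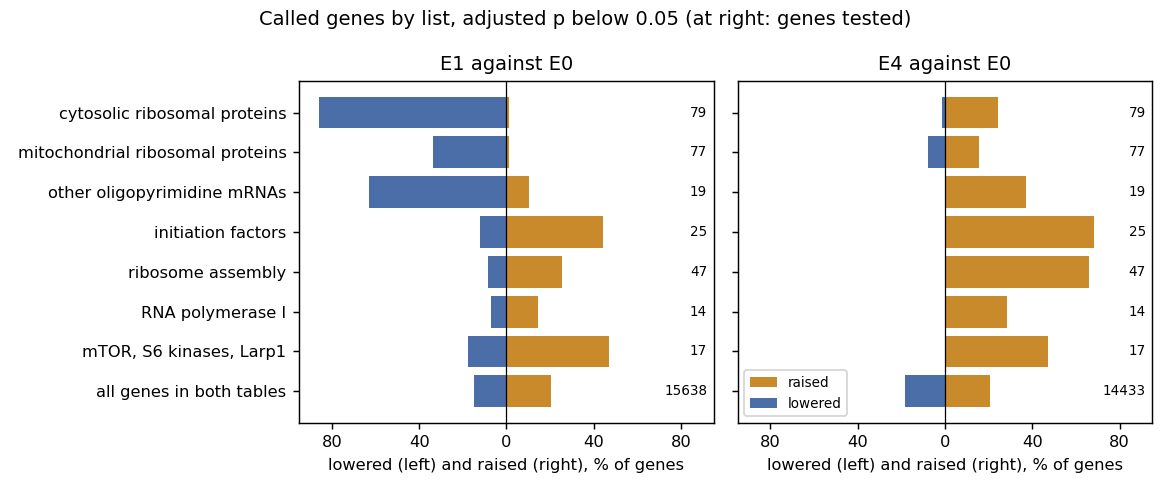
Share of tested genes (%) raised (right of 0) and lowered (left of 0) at an adjusted p below 0.05 in each list, for E1 against E0 and E4 against E0, with the number of genes tested at the right edge. In E1 the cytosolic ribosomal protein genes have 86.1% lowered, and in E4 the initiation factors have 68.0% and the assembly genes 66.0% raised.

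Ribosomal protein messages are short, and the share of genes lowered in E1 was set out by transcript length. Among well-read genes, 32.4% of 108 non-members up to 500 bases long were lowered in E1, against 92.3% of 13 members of that length. Between 500 and 1000 bases it was 28.9% of 803 non-members and 86.7% of 45 members, and between 1000 and 2000 bases 24.9% of 2120 non-members and 92.3% of 13 members. Across the 75 well-read members with a length, log2 length and the E1 log2 fold change had Pearson's r = 0.01 and Spearman's rho = 0.10. Across all 9665 such genes r was 0.16 and rho 0.20. The transcript of median length had 5130 bases for Rps15a and 3706 for Rps20, with only 390 and 357 of them coding. The part of these lengths in r, in the bins and in levels per kilobase was not tested. Genes are not independent replicates and share the libraries, so no p is given. With a smooth trend of the fold change on length removed from the table, 52 of 78 members were lowered and 1 raised in E1, with a median of −0.38, and Rpl36a, Rplp0 and Rplp1 were among those no longer called.

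**Figure D5:**
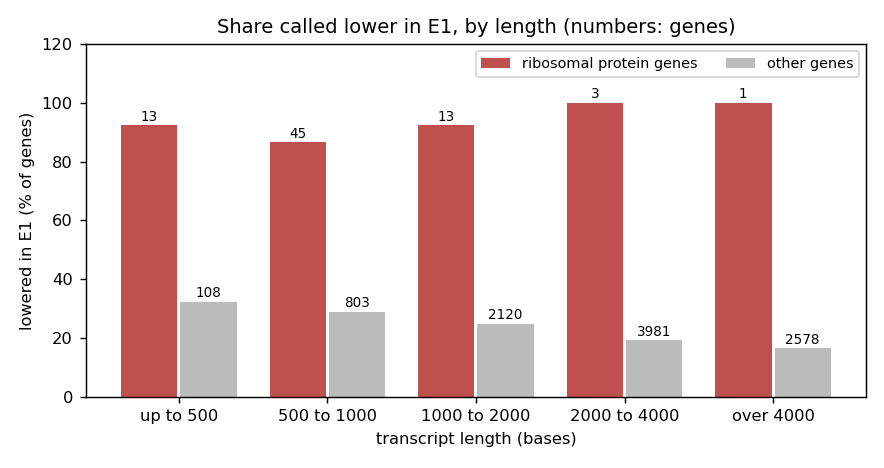
Share of genes (%) lowered in E1 by transcript length, for ribosomal protein genes in red and all other genes in grey, among well-read genes, with the number of genes above each bar. In the 3 bins up to 2000 bases the red bars stand between 86.7% and 92.3% and the grey bars between 24.9% and 32.4%; the 2 bins beyond hold 3 members and 1 member.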

How the data were processed

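Total RNA of the dentate gyrus of 9 mice was made into standard Illumina libraries, per the protocols in the labels. Alignment used TopHat2 and mm9 and the comparison DESeq2, as named without versions in the processing notes of the submitters. Counting program, annotation and strand setting: not given in the sources used here.

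Per the file headers, the signal column of each deposited table is a mean of normalised counts, on its own scale. The log2 fold changes, their SEs, the score (fold change over SE), the p-value and its adjusted form are the authors' deposited values, and a missing adjusted p was kept missing. The tables hold no value per library.

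The members and lists were chosen with earlier results of these data known. Genes named are the 5 highest and 5 lowest log2 fold changes in each comparison and the 3 highest and 3 lowest differences among well-read members (mean count of 50 or more in each table). Added are the second copies, Rplp0, Rplp1, Rplp2, Rps6, Rpsa, Rpl5, Rpl11, Rps27a, Rps14, the 4 best read per length and up to 4 of each list with the smallest adjusted p; a few others are named after their values were seen. A few genes are counted in the totals and not reported by name here.

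Group levels were computed from mean count and fold change, which appears shrunken by the authors, so they are approximate. For E4 against E1, the difference over the root of the summed squared SEs was compared with a normal distribution, two-sided, with Benjamini-Hochberg adjustment over 12769 genes. Single reads recur at fixed mean counts, which give size factors, depth and, for 7 members, whole reads; E1 libraries were set on the scale of the table for E4 by the ratio of the E0 size factors (1.89). On simulated data 19 of 19 genes gave back their true reads. The simulated means were built with the same single-read values that the solution uses, so those values were not checked by it. Draws with a group without reads, as for Rpl39l in E0, were left out. Lengths are of the transcript of median length in GENCODE M21. Alternatives were a threshold of 0.01, other filters and adjustment, centring, leaving out second copies and removing a trend with length (lowess, fraction 0.3). Python 3.11.15, numpy 2.4.6, pandas 2.3.3, scipy 1.17.1 and statsmodels 0.14.6 were used.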

Additional observations from a re-analysis of the deposited data

Results flagged for a closer look

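For most members the values in E1 and in E4 differed from each other by a test of the difference itself. By that test 69 of 77 members were higher in E4 than in E1 and 8 were not called, where 17.7% of all genes were higher and 36.7% called either way. The set was chosen by these same fold changes, so the count describes it and carries no test of the set. Among the members named for this comparison or as second copies, those called had log2 differences of E4 over E1 of 1.57 for Rplp2, 1.40 for Rps25, 1.27 for Rpl22l1 and 1.73 for Rps27l. Named for the same reasons but not called were Rpl7l1 (−0.02), Rpl17 (0.12), Rpl9 (0.19) and Rps4l (0.67).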

How the results depend on the processing

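The counts of called members were recomputed under 7 alternatives for each comparison, 1 of which, the length trend fitted to genes other than the members, was chosen after seeing the data. In E1 the count of 69 ranged from 53 to 69 and in E4 against E1 that of 69 from 58 to 72, all within 1.5 times. In E4 the count of 20 fell to 9 at an adjusted p below 0.01 and otherwise ranged from 17 to 25. Of single named members, the sign turned for small values that were not called before or after. With the length trend removed, E1 values became 0.20 for Rpl9, 0.12 for Rps28, 0.06 for Rps14, 0.04 for Rps13 and 0.02 for Rpl17, and with the trend fitted without members 0.18 for Rpl9, 0.06 for Rps28, 0.03 for Rps14 and 0.00 for Rps13. In E4, centring gave −0.01 for Rps28 and −0.01 for Rps14, removing the length trend 0.00 for Rpl14 and 0.01 for Rpl11, and the trend without members 0.01 for Rpl14 and 0.02 for Rpl11. For E4 against E1 the length trend gave −0.01 for Rpl9, −0.08 for Rps28, −0.01 for Rps14 and −0.07 for Rpl17, and the trend without members −0.01 for Rps28 and −0.04 for Rpl17. In all, 21 named values changed sign, 23 were no longer called, 6 became called and 567 did neither; the cause was not tested. No paired analysis was possible because the tables hold no value per library and the libraries solved for 7 low members carry no mouse number. The deposited fits could not be repeated without a mouse, and no library was left out of the solved values. The lower depth of E1 limits the low members most: Rps27, Rpl34 and Rpl30 had at most 2 reads over its libraries.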
